A study of Mus musculus with 14 samples.

Results

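Accessible chromatin of mouse neural stem cells that carry the ZFTA-RELA fusion was compared with that of the empty-vector cells. The comparison used 4 ATAC-seq libraries of 14 in the series: the untreated fusion libraries (ZR, n = 2) and the empty-vector libraries (EV, n = 2). They were chosen by their titles and share a library series. ZR replicates 1 and 2 and EV replicate 2 carry a PBS vehicle label and EV replicate 1 carries a DMSO vehicle label, so vehicle and replicate cannot be told apart within EV. The culture medium, with EGF and basic FGF, is described for the fusion cells. The labels name brain as the tissue of every library, and give neither the promoter that drives the fusion nor the age or strain of the donor animals. Whether the replicates came from different cultures is not stated, and p-values then measure only the spread between these libraries, which may be technical.

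ATAC-seq uses the Tn5 transposase to insert adapters into DNA that is not packed into nucleosomes, so that peaks mark active promoters and enhancers. ZFTA-RELA joins the zinc finger protein ZFTA to RELA, the main activating subunit of NF-kB, and drives a form of supratentorial ependymoma. Neural stem cells keep their state through SOX and POU factors, Notch signalling and the Id proteins, whereas NF-kB normally switches on cytokine, chemokine and adhesion genes.

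The files are peak lists, and the labels give only a planned range of sequencing depth, so the depth of each library is unknown. On chromosomes 1 to 19 there were 43390 and 43094 peaks in ZR, against 34015 and 42242 in EV. Each list was reduced to its 34015 strongest peaks by the authors' q-value, which left EV replicate 1 at full length. A region was called gained where both ZR lists and neither EV list had a peak, and lost in the opposite case. With 2 libraries against 2, the smallest two-sided exact permutation p for any single value is 0.333, so no single library measure could pass 0.05. Peak positions are in mm10. A peak's strength is given as its percentile in its own list, where 100 is strongest.

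Fusion cells differed from empty-vector cells mainly at sites away from gene starts. Of 58721 regions, 12974 were gained, which is 22.1%, and 11423 were lost, which is 19.5%. A further 14219 had a peak in all 4 lists. Gained regions lay at a gene start in 3.46% of cases, inside genes in 47.7% and between genes in 48.8%. Lost regions lay at a gene start in 8.44% of cases, inside genes in 47.0% and between genes in 44.5%. Regions in all 4 lists lay at a gene start in 60.5% of cases. Gained and lost regions were of like width, with medians of 522 and 532 bp, and regions in all 4 lists were 1084 bp wide. In the full-length list of EV replicate 2, 4.29% of the gained regions had a peak, and the list of EV replicate 1 holds none of them by definition, since it was not shortened. In the full-length ZR lists 7.82% and 7.43% of the lost regions had a peak. The count of regions lost in ZR was 20542 without EV replicate 1, the shortest list, and moved by less than 1.5 times without any other library. The share of peaks at gene starts was 28.5% and 28.7% in ZR, against 31.4% and 31.2% in EV, and the groups did not overlap (difference -2.73 percentage points, exact permutation p = 0.333, n = 2 each).

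Chromosome 4 stood apart. There 9.80% of regions were gained and 30.4% lost, and regions in all 4 lists had a median percentile of 58.1 and 56.2 in ZR, against 79.3 and 80.2 in EV. Both ZR libraries were below both EV libraries. The median difference over the regions of a chromosome, ZR minus EV, was -18.9 points on chromosome 4, -12.2 on chromosome 11, -7.33 on chromosome 15 and -5.11 on chromosome 9, and lay between -4.45 and 1.52 points on the others. Among the genes described next, Pou3f2, Hes5, Heyl, Id3, Ephb2 and Ddx58 are on chromosome 4. Ccl2, Ccl7, Arl4d, Kdm6b and Tbx2 are on chromosome 11, Cbx7 and Mlc1 on chromosome 15, and Keap1, Gsta1 and Tagln on chromosome 9. The part of these chromosome-wide shifts in the results for single genes was not tested.

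**Figure D1:**
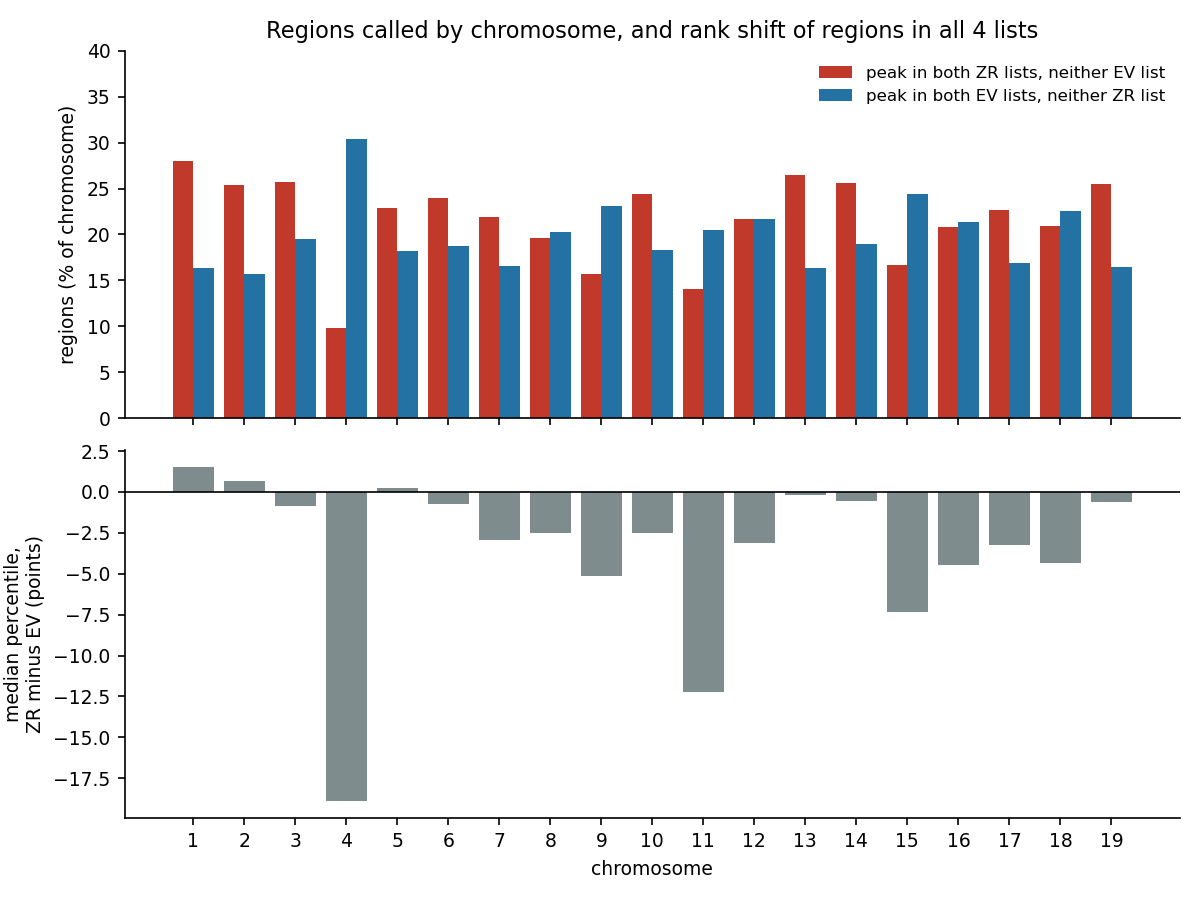
Upper panel, percent of the regions of each chromosome gained in ZR (red) or lost in ZR (blue); lower panel, median difference in percentile (ZR minus EV, points) of regions with a peak in all 4 lists. Chromosome 4 has the most lost regions, at 30.4%, the fewest gained, at 9.80%, and the lowest median, at -18.9 points.

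At gene starts, losses outnumbered gains. A start peak is one that lies within 1 kb of a gene's start, or of either gene end where no start was listed. In the second case the peak may lie at the far end of the gene. Among the genes given below as gained or lost, those with no listed start were Heyl, Bmp2, Gli1, Ccl2, Ccl7, Vcam1, Kdm6b, Zbp1, Hoxa4, Tbx15, Tbx2, Lama1, Cntnap4, Sparcl1, Myh11 and Tagln. Ccnd1 had none listed either. Of 11646 protein-coding genes that had a start peak in at least 1 list, 305 gained it, which is 2.62%, and 766 lost it, which is 6.58%. A further 9377 had one in all 4 lists. With full-length lists losses still outnumbered gains, but by less, since fewer genes lost a start peak and more gained one. Away from chromosomes 4, 9, 11 and 15, 260 of 8833 genes gained a start peak (2.94%) and 500 lost it (5.66%). Members of 29 gene lists were read against these shares.

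The neural stem transcription factors showed losses and no gain. Of 17 members with a start peak, 0 gained it and 7 lost it, and away from the 4 named chromosomes 6 of 12 lost it. Pou3f2, a POU factor of neural progenitors, had no peak in either ZR list, against percentiles of 99.0 and 99.4 in EV. Sox2, which keeps neural stem cells undifferentiated, had none in ZR, against 95.3 and 91.9 in EV. The related SOXB genes Sox1 and Sox21 had none in ZR, against 85.1 and 87.1 in EV for Sox1 and 94.8 and 94.3 for Sox21. None of these 4 genes had a start peak in the full-length ZR lists either. Nfix, a nuclear factor I gene, had none in ZR, against percentiles of 60.7 and 60.2 in EV. Nr2e1, an orphan nuclear receptor that keeps adult neural stem cells in cycle, had none in the equal-length ZR lists, against 50.2 and 55.6 in EV, with a peak in the full-length list of ZR replicate 1. Hopx, a homeodomain-only protein found in outer radial glia, had none in the equal-length ZR lists, against 73.9 and 64.2 in EV, but both full-length ZR lists held a peak there. Each region was also assigned to the protein-coding gene of nearest end, where that end lay within 100 kb. Regions at gene starts were kept, so the lost starts above can count again here. Of 143 regions assigned to these genes 18 were gained and 53 lost, that is 12.6% and 37.1%. Over all genes 20.8% of assigned regions were gained and 18.2% lost. Regions called near or nearby below were assigned in the same way.

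Not every gene of this kind moved. Sox9 (gliogenic SOX factor) and Nr2f1 (a nuclear receptor of cortical patterning) had peaks in all 4 lists with no rank call. Among structural and maintenance genes 0 of 10 gained a start peak and 3 lost it. Ptprz1, a receptor phosphatase of radial glia, had none in ZR, against percentiles of 81.4 and 84.7 in EV. Metrn, which encodes the secreted glial factor meteorin, had none in ZR, against 33.6 and 25.2 in EV, with a peak in both full-length ZR lists. As a check of the cell labels, peaks at the starts of 11 neural stem markers numbered 5 and 4 in the full-length ZR lists, against 7 and 8 in EV. Vim, Sox9 and Fabp7 had peaks in all 4 libraries, and Nes, Pax6 and Prom1 in none. Markers of other cell types were few in each group. Microglial markers had 1 and 1 start peaks in ZR and 2 and 2 in EV of 7, with Aif1, Cx3cr1, Csf1r, Ptprc and Tyrobp at 0 in all 4. Vascular and mural markers had 1 and 0 in ZR and 2 and 2 in EV of 7, with Pecam1, Cldn5, Acta2 and Rgs5 at 0 in all 4. Mesenchymal markers had 3 and 3 in ZR and 2 and 1 in EV of 8, with Col1a2, Prrx1, Twist1, Lum and Pdgfrb at 0 in all 4. Their part in the results was not tested. In bulk cells, fewer cells with an open site and less opening per cell cannot be told apart.

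**Figure D2:**
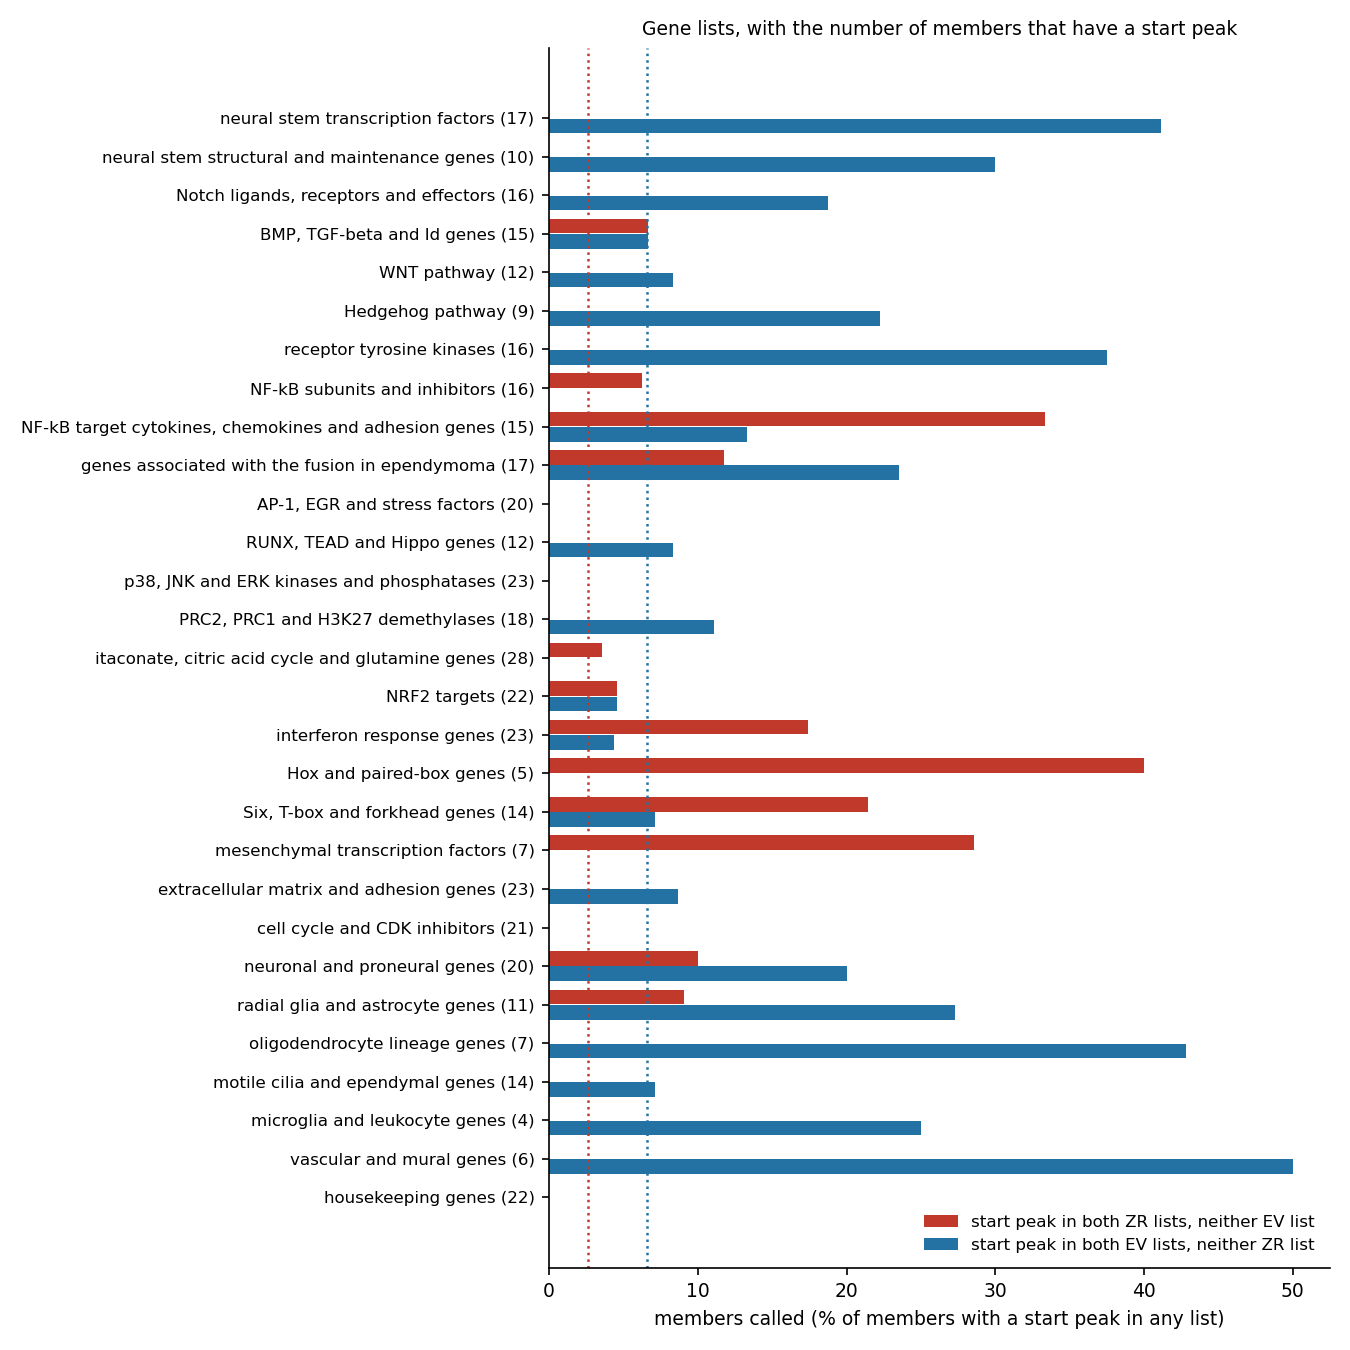
Percent of the members with a start peak that gained it in ZR (red) or lost it in ZR (blue), for each of 29 gene lists, with the number of such members in parentheses; dotted lines give the shares over all 11646 genes, 2.62% gained and 6.58% lost. The vascular and mural list, with 6 members, has the longest blue bar, at 50%. Neural stem, receptor tyrosine kinase, glial, microglial and Hedgehog lists are among the others with blue bars well past the blue line. Hox and paired-box, NF-kB target, interferon and mesenchymal lists are among those with red bars past the red line.

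The start of Sox1 and that of Hes5 are shown because they carry letters that SOX and POU factors are known to bind. The sequences are the 250 bases before to 50 after the listed start (RefSeq, GRCm38.p6). Capitals mark matches on either strand to the motifs searched here: GGGGCGGGG (SP/KLF) and ATGCAAAT (POU octamer) in Sox1, and ACAATGG (SOX) in Hes5. Sox1 lies at chr8:12395269-12395568 (+ strand) and Hes5 at chr4:154960673-154960972 (+ strand).
Sox1: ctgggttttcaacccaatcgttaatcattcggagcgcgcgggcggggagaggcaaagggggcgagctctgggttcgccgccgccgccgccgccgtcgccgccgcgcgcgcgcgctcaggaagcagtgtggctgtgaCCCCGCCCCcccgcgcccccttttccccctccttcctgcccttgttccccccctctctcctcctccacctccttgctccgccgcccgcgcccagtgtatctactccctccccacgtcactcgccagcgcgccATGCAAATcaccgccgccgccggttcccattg
Hes5: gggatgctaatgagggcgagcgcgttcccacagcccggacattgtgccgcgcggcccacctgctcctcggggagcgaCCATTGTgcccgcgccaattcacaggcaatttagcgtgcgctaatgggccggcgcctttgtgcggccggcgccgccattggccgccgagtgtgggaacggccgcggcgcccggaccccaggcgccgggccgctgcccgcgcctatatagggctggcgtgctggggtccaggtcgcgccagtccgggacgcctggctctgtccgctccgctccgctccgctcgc
A match is a description of the letters and does not show that the site is bound.

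Pathways that act on neural stem cells differed in their share of losses, and some lay near the 6.58% of all genes. In the Notch list 0 of 16 genes gained a start peak and 3 lost it, with 12 gained and 27 lost among 78 regions nearby. The 3 losses were the receptor gene Notch3 and the effectors Hes5 and Heyl. Heyl had no listed start, so its lost peak may lie at the far end of the gene. Hes5 had no peak in the equal-length ZR lists, against percentiles of 55.3 and 45.6 in EV, with a peak in both full-length ZR lists. Notch3 had none in ZR, against 44.3 and 35.1 in EV. Away from chromosomes 4, 9, 11 and 15 the loss was 1 of 13, near the 5.66% of all genes there. Of the receptor tyrosine kinases 0 of 16 gained and 6 lost a start peak: Kit, Kdr, Ntrk2, Ephb2, Fgfr3 and Epha3. Ntrk2, the BDNF receptor, had none in the equal-length ZR lists, against 65.1 and 47.1 in EV. The full-length list of ZR replicate 1 held a peak at Ntrk2 and at Ephb2, and both full-length ZR lists held one at Fgfr3. Kit, the stem cell factor receptor, had none in ZR, against 51.5 and 56.4 in EV. In the Hedgehog list 0 of 9 gained and 2 lost a start peak. Hhip, which binds and restrains Hedgehog ligands, had none in the equal-length ZR lists, against 70.2 and 65.5 in EV, with a peak in the full-length list of ZR replicate 1. Gli1, a target and transcription factor of the pathway, had none in the equal-length ZR lists, against 6.91 and 26.9 in EV, with a peak in both full-length ZR lists. In the WNT list 0 of 12 gained and 1 lost it, or 8.33%, the ligand gene Wnt7a. In the BMP and Id list Bmp2, a ligand, gained a start peak and Id3, an inhibitor of basic helix-loop-helix factors, lost it, each 1 of 15 or 6.67%. Both full-length ZR lists held a peak at Id3.

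Glial lineage genes lost more start peaks than they gained at equal list length, whereas regions nearby differed between the gene lists. In the radial glia and astrocyte list 1 of 11 genes gained a start peak and 3 lost it, with 10 gained and 27 lost among 78 regions nearby. Mlc1, a membrane protein of astrocyte end-feet, had none in the equal-length ZR lists, against percentiles of 77.3 and 71.8 in EV. Gja1, which encodes connexin 43, had none in them, against 41.3 and 36.6 in EV. Fgfr3 was the other loss. Both full-length ZR lists held a peak at Mlc1, Gja1 and Fgfr3, so none of these 3 losses was called with full-length lists. Sparcl1, a matrix protein of astrocytes, was the gain, at 54.8 and 53.9 in ZR and with no peak in EV. This gain stayed with full-length lists. In the oligodendrocyte list 0 of 7 gained and 3 lost a start peak, but 33 of 115 regions nearby were gained (28.7%) and 24 lost (20.9%). Olig2, the lineage factor, had none in any ZR list, against 86.9 and 81.7 in EV. Sox8 and Sox6 were the others, with a peak at Sox8 in both full-length ZR lists, and 5 gained and 0 lost regions near Sox6. Of 20 neuronal and proneural genes 2 gained and 4 lost a start peak, but 41 of 131 regions nearby were gained (31.3%) and 24 lost (18.3%). Neurod1 and Neurog1, proneural activators, had none in ZR, against 74.2 and 60.9 in EV for Neurod1 and 62.6 and 59.6 for Neurog1, and Dlx2 and Cntnap4 were the other losses, with a peak at Dlx2 in both full-length ZR lists. Nrxn3, a presynaptic adhesion gene, had percentiles of 92.1 and 86.5 in ZR and no peak in EV. Reln, the secreted guide of neuronal layering, had 27.5 and 24.2 in ZR and none in EV. Rfx4, a ciliary factor of the neural tube, was the 1 loss among 14 cilia genes, with 0 gains, and had a peak in both full-length ZR lists. Among few members of other lineages, P2ry12 was lost of 4 microglial genes, and Kdr, Myh11 and Tagln of 6 vascular and mural genes.

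NF-kB target genes gained start peaks more often than they lost them. Of 15 with a start peak 5 gained it and 2 lost it, and 28 of 77 nearby regions were gained against 12 lost, that is 36.4% and 15.6%. Cxcl10, a chemokine for T cells, had percentiles of 74.7 and 76.6 in ZR and no peak in EV. Cxcl1, a neutrophil chemokine, had 65.5 and 61.8 in ZR and none in EV. Ccl2, a monocyte chemokine, had 49.1 and 57.2 in ZR and none in EV. Sele (E-selectin) had 16.0 and 27.3, and Tnf, the cytokine, had 7.86 and 9.15, in ZR, with none in EV. None of the 5 had a peak in either full-length EV list. Ccl7 and Vcam1 were the losses, with a peak at Vcam1 in both full-length ZR lists. Ccl7, next to Ccl2 on chromosome 11, had no peak in ZR, against 57.1 and 50.2 in EV. The NF-kB subunits and inhibitors themselves showed 1 gain and 0 losses of 16. The gain was Ikbke, a kinase upstream of interferon and NF-kB signalling, at 4.14 and 35.7 in ZR. Rela had a start peak in every library, at 50.8 and 56.6 in ZR, against 52.6 and 39.0 in EV (limma, adjusted p = 0.422). Nfkbia, the feedback inhibitor, had 85.8 and 77.9 in ZR, against 90.0 and 90.6 in EV (limma, adjusted p = 0.141). Rel and Nfkbib of this list ranked lower in ZR, as given below.

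Interferon response genes also gained more than they lost, 4 against 1 of 23, with 17 gained and 4 lost of 52 regions nearby. Zbp1, a nucleic acid sensor, had percentiles of 84.7 and 81.8 in ZR and no peak in EV. Ifi209, of the mouse Ifi200 gene cluster, had 70.2 and 75.4 in ZR and none in EV. Irf7, the interferon regulatory factor, had 41.6 and 18.2 in ZR and none in the equal-length EV lists, with a peak in the full-length list of EV replicate 2. Gbp5, a guanylate-binding protein, had 35.7 and 7.89 in ZR and none in EV. Ddx58, which encodes the RNA sensor RIG-I, was the loss, with a peak in the full-length list of ZR replicate 1.

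The starts of Cxcl10 and Cxcl1 are shown as gained promoters with matches to inflammatory motifs (RefSeq, GRCm38.p6, the same 300-base window). In Cxcl10 the capitals mark GAAANNGAA (IRF) and TGACTCAGC (NRF2), which contains the AP-1 letters TGANTCA. In Cxcl1 they mark GGGNNTTTC (NF-kB). Only that pattern was searched for NF-kB, so lower case does not show that a start lacks NF-kB sites. Cxcl10 lies at chr5:92348840-92349139 (- strand) and Cxcl1 at chr5:90890995-90891294 (+ strand).
Cxcl10: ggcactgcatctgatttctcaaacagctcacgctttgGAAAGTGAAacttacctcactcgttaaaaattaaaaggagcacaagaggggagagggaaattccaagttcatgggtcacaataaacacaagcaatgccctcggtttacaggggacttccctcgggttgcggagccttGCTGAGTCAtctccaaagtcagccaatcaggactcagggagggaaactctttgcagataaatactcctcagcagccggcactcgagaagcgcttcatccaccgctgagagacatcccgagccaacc
Cxcl1: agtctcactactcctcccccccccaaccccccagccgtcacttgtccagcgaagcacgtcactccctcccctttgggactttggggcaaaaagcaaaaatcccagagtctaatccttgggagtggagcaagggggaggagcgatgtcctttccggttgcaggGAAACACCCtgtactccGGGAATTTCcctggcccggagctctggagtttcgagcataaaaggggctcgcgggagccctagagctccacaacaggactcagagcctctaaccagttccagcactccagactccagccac
Cxcl10 and Cxcl1 lie on chromosome 5, where 22.9% of regions were gained and 18.2% lost.

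Patterning and mesenchymal factors also gained start peaks. Of 14 sine oculis homeobox, T-box and forkhead genes 3 gained and 1 lost one. Six2, a factor of kidney and craniofacial progenitors, had percentiles of 92.3 and 92.3 in ZR and no peak in EV. Tbx15 had 18.2 and 19.6, and Six3, an anterior forebrain and eye factor, 36.4 and 14.95, in ZR and none in EV. Tbx2 was the loss, with none in the equal-length ZR lists, against 86.4 and 82.6 in EV, and a peak in both full-length ones. Of 5 Hox and paired-box genes 2 gained and 0 lost. Hoxa4 had 62.4 and 61.7, and Hoxa7 50.0 and 7.04, in ZR and none in EV. Of 7 mesenchymal transcription factors 2 gained and 0 lost, with 26 gained and 14 lost of 77 regions nearby. Twist2 had 52.0 and 45.7, and Snai1, a repressor of epithelial genes, 35.9 and 1.92, in ZR and none in EV.

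**Figure D3:**
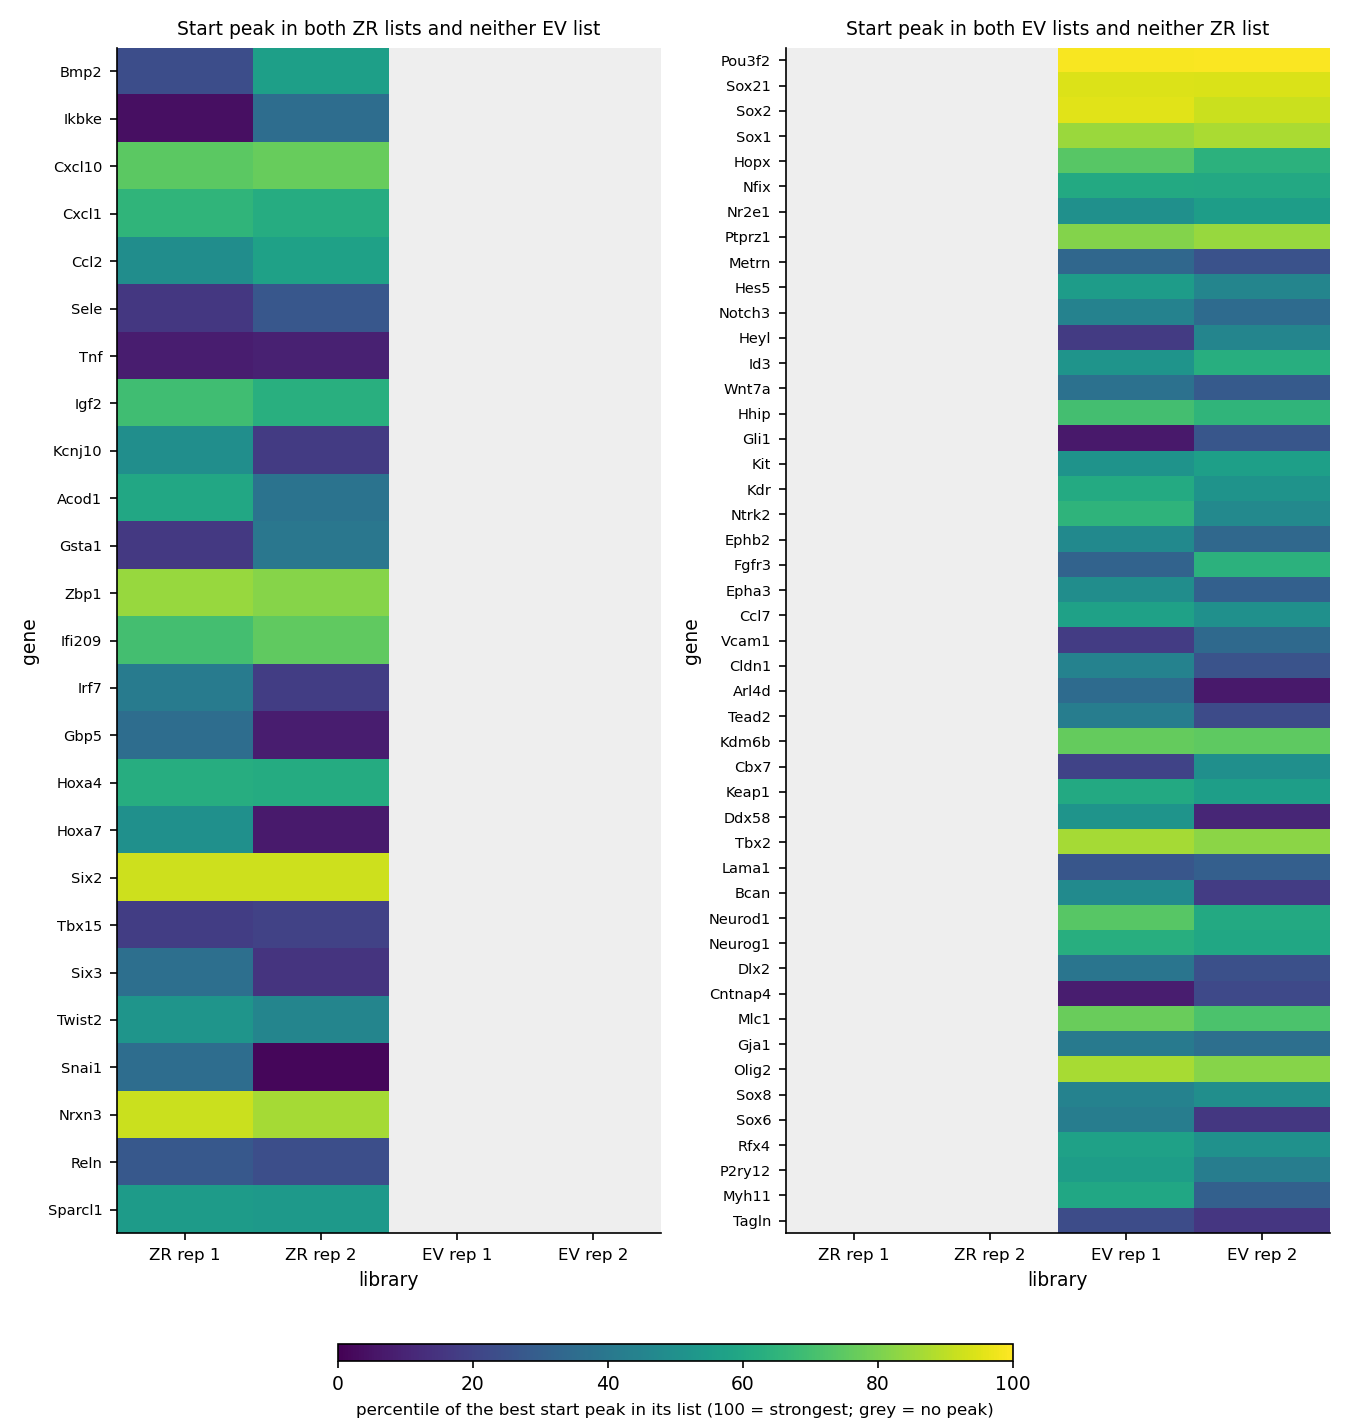
Percentile of the best start peak (colour, 100 strongest, grey no peak) in each library, ZR columns left of EV columns, for the list genes reported here that were gained in ZR (left panel) and lost in ZR (right panel). Six2 and Nrxn3 are among the brightest gains, at 92.3 and 92.1 in ZR replicate 1, and Pou3f2, Sox21 and Sox2 the brightest losses, at 99.4, 94.3 and 91.9 in EV replicate 2.

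Genes associated with the fusion in ependymoma were mixed, with 2 gains and 4 losses of 17. Igf2, a growth factor gene, had percentiles of 69.2 and 63.3 in ZR and no peak in EV, and Kcnj10, a potassium channel, had 49.4 and 17.2. Ephb2, Fgfr3, Cldn1 and Arl4d were lost. Ccnd1, which encodes cyclin D1, had a start peak in all 4 libraries, at 41.6 and 46.0 in ZR, against 51.0 and 51.0 in EV (limma, adjusted p = 0.358), and Cachd1 had 69.5 and 61.9 in ZR, against 76.9 and 74.9 in EV (adjusted p = 0.188). In the itaconate, citric acid cycle and glutamine list 1 of 28 genes gained a start peak and 0 lost it. This was Acod1, the enzyme that makes itaconate, at 59.8 and 38.3 in ZR and absent from the equal-length EV lists, although the full-length list of EV replicate 2 held a peak there. Of the Polycomb list 0 of 18 gained and 2 lost: the H3K27 demethylase gene Kdm6b and Cbx7, on chromosomes 11 and 15. At Kdm6b the merged region still had a peak in all 4 lists, since its ZR peaks lay outside the 1 kb window. It stood at 58.1 and 35.2 in ZR, against 76.2 and 75.4 in EV, with no rank call (limma, adjusted p = 0.0568). Windows of 2 kb and 50% cover each ended the Kdm6b loss. Ezh2, the H3K27 methyltransferase, had 90.1 and 90.0 in ZR, against 95.1 and 94.9 in EV (limma, adjusted p = 0.102). Other Polycomb genes ranked lower in ZR, as given below. The NRF2 targets had 1 gain, Gsta1, and 1 loss, Keap1, of 22, and both full-length ZR lists held a peak at Keap1. The extracellular matrix list had 0 gains and 2 losses of 23, Lama1 and Bcan, and the RUNX, TEAD and Hippo list 0 gains and 1 loss of 12, Tead2, where both full-length ZR lists held a peak. No start peak was gained or lost at 20 AP-1, EGR and stress factor genes, 23 genes of p38, JNK and ERK signalling, 21 cell cycle genes or 22 housekeeping genes. Around the p38, JNK and ERK genes 41 regions were gained and 18 lost of 158, that is 25.9% and 11.4%. Over all genes these shares were 20.8% and 18.2%.

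The gained promoters differed in their letters from the others. AP-1 letters (TGANTCA) stood in 50 of 234 gained promoters, or 21.4% (95% exact binomial interval 16.3 to 27.2). They stood in 24 of 593 lost promoters, or 4.05% (2.61 to 5.96), in 3.68% of 7416 promoters under a peak in all 4 lists and in 7.12% of all 16456 listed promoters. IRF letters (GAAANNGAA) stood in 13.2% of gained, 5.23% of lost and 8.03% of all listed promoters. NF-kB letters (GGGNNTTTC) stood in 6.84% of gained promoters (3.96 to 10.9), 4.72% of lost ones (3.16 to 6.75) and 4.27% of all, and the gained and lost intervals overlapped. Only this pattern was counted for NF-kB, so sites with other letters would be missed. NRF2 letters, which hold the AP-1 letters, stood in 2.99% of gained, 0.169% of lost and 0.352% of all promoters. ETS letters (CCGGAAGT) stood in 2.56% of gained, 2.53% of lost and 9.75% of promoters in all 4 lists. SOX letters (ACAATGG) stood in 1.28% of gained and 3.04% of lost promoters, and 2.90% of all. RFX letters (GTTGCCATG) stood in 0.855% of gained and 1.69% of lost promoters, and 0.626% of all. For the POU octamer (ATGCAAAT) the shares were 1.71% of gained, 1.52% of lost and 1.71% of all promoters. SP/KLF letters (GGGGCGGGG) stood in 11.97% of gained, 17.0% of lost and 16.4% of all promoters. The basic helix-loop-helix E-box searched was CAGCTG, which stood in 21.4% of gained, 21.9% of lost and 15.2% of all promoters. The TEAD letters GGAATGT were found in 4.27% of gained, 3.54% of lost and 3.37% of all promoters. For RUNX factors the letters were TGTGGTT, found in 5.98% of gained, 3.71% of lost and 4.84% of all promoters. For GATA factors they were AGATAAG, found in 2.99% of gained, 1.35% of lost and 2.54% of all promoters. The insulator protein CTCF was represented by CAGGGGGC, found in 5.13% of gained, 6.24% of lost and 3.66% of all promoters. Those of PLAG factors were GGGGCCC, found in 6.84% of gained, 8.60% of lost and 7.75% of all promoters. Intervals cover counting error only, since promoters of a library are not replicates.

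The gained promoters were also poorer in G and C, with a median of 53.3%, against 61.0% in lost promoters and 63.0% in those under a peak in all 4 lists. AP-1, IRF and NF-kB letters were counted within bands of GC content. Below 50% GC, 23 of 80 gained promoters (28.8%) and 7 of 80 lost ones (8.75%) held the AP-1 letters. From 50% to 60% GC they stood in 22.8% of 92 gained and 6.15% of 195 lost promoters, and at 60% and above in 9.68% of 62 gained and 1.57% of 318 lost promoters. IRF letters stood in 21.25% of gained and 16.25% of lost promoters below 50% GC, in 11.96% and 5.13% from 50% to 60%, and in 4.84% and 2.52% at 60% and above. NF-kB letters stood in 11.25% of gained and 11.25% of lost promoters below 50% GC, in 6.52% and 5.64% from 50% to 60%, and in 1.61% and 2.52% at 60% and above. The gained share was thus above the lost share in every band for AP-1 and IRF, and only from 50% to 60% for the NF-kB pattern searched. IRF counts were small. They were 17 of 80 gained and 13 of 80 lost promoters below 50% GC, and 11 of 92 and 10 of 195 from 50% to 60%. At 60% and above they were 3 of 62 and 8 of 318. The differences within bands were not tested. Per library, 4.25% and 4.25% of promoters under a peak held AP-1 letters in ZR, against 3.76% and 3.69% in EV, and the groups did not overlap (difference 0.52 percentage points, exact permutation p = 0.333, n = 2 each). The groups were likewise separate for every other motif searched except the POU octamer and RUNX, in either direction. Separation of the groups was thus not particular to AP-1. Without EV replicate 2 the share in gained promoters was 14.4%. Motifs in peaks away from gene starts were not analysed here.

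Regions were counted for the gene of nearest end within 100 kb, as above. The genes with most gained regions were Camk2d, a calcium-dependent kinase, Dok5, an adaptor of receptor tyrosine kinases, and Mitf, the melanocyte and osteoclast factor, with 12 each. Camk2d had 5 lost regions, Dok5 had 2 and Mitf 3. Bcas1, Eps8, Kctd3, Myof, Nfatc2, Rin2 and Tspan9 had 11 gained regions each, with between 0 and 3 lost. Nfatc2 is a calcium-regulated transcription factor. At Kctd3 the 11 gained and 0 lost regions had median percentiles of 41.0 and 45.5 in ZR. The genes with most lost regions were Kazn, with 12 lost and 0 gained, and Rgs3, Slc1a3, Tns3, Trabd2b and Ttc7b, with 9 lost each. Trabd2b also had 7 gained regions, Ttc7b 6, Tns3 5 and Rgs3 3. Slc1a3, the glutamate transporter of radial glia and astrocytes, had 0 gained regions, and its lost regions had median percentiles of 71.2 and 64.9 in EV. Adamts2, Ano6 and Apba2 followed with 8 lost each, beside 1, 2 and 2 gained regions in that order. Kazn, Rgs3 and Trabd2b lie on chromosome 4, Tns3 and Adamts2 on chromosome 11, and Slc1a3 and Ano6 on chromosome 15.

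Of gained regions with no counterpart in the full-length EV lists, the strongest lay at chr7:135604540-135606102, with percentiles of 99.4 and 99.2 in ZR. It lay at a gene start, and the nearest gene end, 66716 bp away, was that of Ptpre, a receptor phosphatase gene. The next were nearest to Map2k6 (98.7 and 99.0), Pax9 (99.3 and 98.7), Ifi209 (98.7 and 99.0) and Bcas1 (98.6 and 98.5), and 1 at chr8:112730375-112731927 (98.8 and 98.6) had no gene end within 100 kb. The strongest lost region was the Pou3f2 start. The next was nearest to Macrod2, at 99.2 and 98.3 in EV, and the others to Gm41607, Astn2, Tmtc2 and Lmo4. These are the 6 best of each kind by the poorer of their ranks.

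Ranks were also compared within the 14219 regions that had a peak in all 4 lists. By limma on normal scores of rank, with Benjamini-Hochberg adjustment over all 14219, 1447 ranked higher in ZR, which is 10.2%, and 2565 ranked lower, which is 18.0%. The median difference over them was -2.61 points, ZR minus EV. When ranks were taken among these regions only, 1993 were higher and 1971 lower. At gene starts 5.89% were higher and 18.0% lower, whereas inside genes 18.1% were higher and 18.4% lower. Per gene, 562 of 9413 genes had a start region ranked higher (5.97%) and 1631 one ranked lower (17.3%), with a median of -2.96 points. Without ZR replicate 1 the counts were 415 higher and 1488 lower, without ZR replicate 2 they were 450 and 1507, without EV replicate 1 they were 1417 and 1065, and without EV replicate 2 they were 664 and 326.

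**Figure D4:**
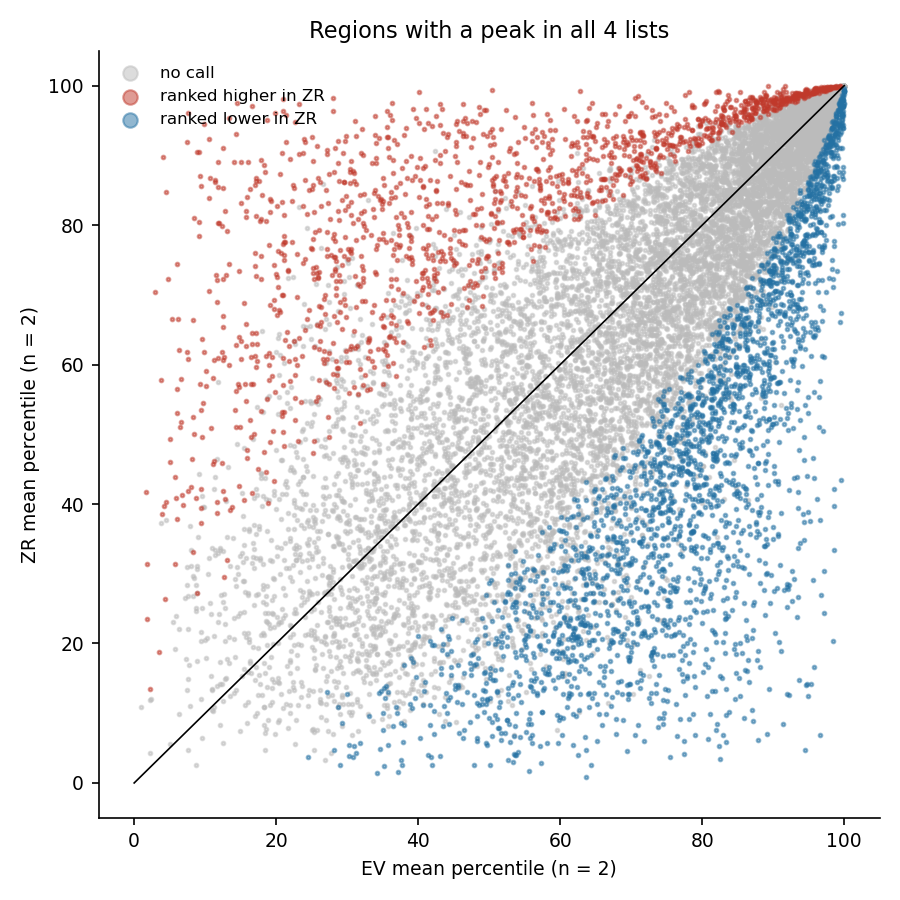
Mean percentile in ZR (vertical) against that in EV (horizontal) of the 14219 regions with a peak in all 4 lists; red and blue points were ranked higher and lower in ZR by limma (adjusted p under 0.05) and the line marks equal percentiles. There are 1447 red and 2565 blue points, and the blue cloud reaches regions above the 90th percentile in EV that are far weaker in ZR.

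Among start regions ranked higher, Ifi204, an interferon-inducible gene of the Ifi200 cluster, had percentiles of 99.4 and 99.4 in ZR, against 50.3 and 50.6 in EV (limma, adjusted p = 0.00854). Fcgr4, a mouse Fc receptor, had 93.9 and 94.0 in ZR, against 35.8 and 40.7 in EV (limma, adjusted p = 0.00854). In each of these the ZR values were close together and far above EV. Ntpcr, Cast (calpastatin, the calpain inhibitor), Zfp64, Xirp1 and Snx7 were also among the 8 with the largest moderated t. Among start regions ranked lower, Trim67 had 4.67 and 6.03 in ZR, against 83.3 and 81.4 in EV (limma, adjusted p = 0.00854). Gldc, the glycine cleavage enzyme, had 13.4 and 14.7 in ZR, against 96.5 and 92.8 in EV (limma, adjusted p = 0.00854). Hdac7, a class IIa histone deacetylase, had 19.7 and 20.9 in ZR, against 90.4 and 91.1 in EV. Gm3636, Dpf1, Phc2, Jam2 and Gab1 completed these 8.

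The same neural stem list had 0 of 9 shared start regions ranked higher and 1 lower, Nfib on chromosome 4, and a median of -11.0 points. Of 7 shared start regions of structural and maintenance genes 1 was higher and 2 were lower. Fabp7, the fatty acid binding protein of radial glia, had percentiles of 65.0 and 57.4 in ZR, against 97.0 and 96.8 in EV (limma, adjusted p = 0.00887). Egfr, on chromosome 11, had 40.8 and 26.9 in ZR, against 82.1 and 82.6 in EV (limma, adjusted p = 0.0123). Mki67, a proliferation marker, had 92.7 and 94.5 in ZR, against 82.4 and 82.7 in EV (limma, adjusted p = 0.0380). Slc1a3 had 14.3 and 9.70 in ZR, against 71.2 and 67.9 in EV (limma, adjusted p = 0.00887). Notch1 had 36.1 and 33.7 in ZR, against 61.9 and 71.6 in EV (limma, adjusted p = 0.0244). Other Notch genes with shared start regions, such as the ligand Jag1, the effector Hes1 and the nuclear mediator Rbpj, had no call. Among BMP genes, Id4 and the secreted BMP antagonists Nog and Chrd ranked lower and the receptor Tgfbr2 higher. Nog had 15.3 and 22.0 in ZR, against 83.1 and 83.2 in EV (limma, adjusted p = 0.00857), and lies on chromosome 11. In the Hedgehog list 0 of 7 were higher and 2 lower, the transducer Smo and the transcription factor Gli3, whereas Gli2 had no call (limma, adjusted p = 0.199).

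Other lists moved in both directions. Of 20 AP-1, EGR and stress factor genes 1 ranked higher, Atf3, at 93.3 and 89.7 in ZR, against 76.3 and 74.4 in EV (limma, adjusted p = 0.0320). In that list 6 ranked lower, namely Fosl2, Jun, Batf3, Egr3, Klf4 and Klf6, of which Jun and Klf4 are on chromosome 4. Tead4, a Hippo pathway factor, ranked higher, at 92.9 and 93.0 in ZR, against 72.1 and 71.3 in EV (limma, adjusted p = 0.0146), and its co-activator gene Yap1 ranked lower. The p38 activator Map2k6 ranked higher although on chromosome 11, at 88.2 and 85.0 in ZR, against 65.3 and 55.3 in EV (limma, adjusted p = 0.0243). Dusp1, a phosphatase of p38 and JNK, and the FGF-response genes Spry4 and Etv5 ranked lower, and with Map2k3 these made 4 lower and 1 higher of 23. Of 4 mesenchymal transcription factors 1 ranked higher and 1 lower, with a median of -8.75 points. Snai2 ranked higher, at 87.7 and 87.7 in ZR, against 48.9 and 64.8 in EV (limma, adjusted p = 0.0229). Osr2, on chromosome 15, ranked lower, at 63.2 and 34.5 in ZR, against 92.7 and 89.0 in EV (limma, adjusted p = 0.0261). Of 21 cell cycle genes Ccnd2 and Plk1 ranked higher and Cdk6, Cdkn1c, Cdkn2b (chromosome 4) and Cdkn2d (chromosome 9) lower. Of 17 interferon genes Ifi204 and Ifit1 ranked higher and Irf1 and Irf9 lower. Of 15 NF-kB subunits and inhibitors 0 ranked higher and 2 lower, Rel and Nfkbib, with a median of -6.22 points. Rel, on chromosome 11, had 84.9 and 86.0 in ZR, against 94.8 and 95.6 in EV (limma, adjusted p = 0.0329). Over all genes 5.97% had a start region ranked higher and 17.3% one ranked lower. The Polycomb list had 0 higher and 3 lower of 14, with a median of -6.37 points. The lower ones were Suz12 and Cbx2 on chromosome 11 and Rbbp4 on chromosome 4 (limma, adjusted p = 0.0268, 0.0467 and 0.0121). Housekeeping genes had 0 higher and 5 lower of 22, with a median of -6.24 points, and 2 of the 5, Vcp and Psmb2, are on chromosome 4.

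Losses outnumbered gains at microRNA genes too, in a look-up added after the data were seen. Of 167 microRNA hairpins with a peak within 1 kb in any list, 8 were gained, which is 4.79%, and 29 lost, which is 17.4%. Several hairpins share a peak or a cluster, so they are not independent. Mir9-1 and Mir9-2 encode miR-9, an abundant microRNA of neural progenitors. Mir9-2 had no peak in ZR, against percentiles of 77.4 and 61.5 in EV, and Mir9-1 none, against 25.7 and 24.1. The neighbours Mir181a-1 and Mir181b-1 shared a peak that was absent in ZR, against 29.7 and 44.5 in EV. Of the Mir344 cluster on chromosome 7, 6 hairpins were lost, led by Mir344i, with none in ZR, against 89.1 and 91.0 in EV. Mir199a-1, a mesenchymal microRNA, was gained, at 54.4 and 57.7 in ZR and none in EV, and so was Mir30a, at 49.6 and 55.4. The mature sequences of these are shown from RefSeq (GRCm38.p6), with the seed, bases 2 to 8, in capitals. The lost miR-181a-5p and miR-181b-5p share a seed.
mmu-miR-9-5p: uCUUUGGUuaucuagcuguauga
mmu-miR-181a-5p: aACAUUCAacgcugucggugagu
mmu-miR-181b-5p: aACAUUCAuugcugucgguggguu
mmu-miR-344i: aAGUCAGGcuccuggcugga
mmu-miR-199a-5p: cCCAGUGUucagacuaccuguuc
mmu-miR-30a-5p: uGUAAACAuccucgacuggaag
miR-9-5p is read from Mir9-1 at chr3:88215613-88215635 (+ strand) and is identical at Mir9-2, and miR-344i lies at chr7:62085281-62085300 (- strand).

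The gained and lost regions were then looked up in the other libraries, each list reduced to 11806 peaks, the length of the shortest. In ZR itself 25.5% and 25.1% of gained regions had a peak at that length. They had one in 26.8% and 25.0% of cases in fusion cells of the same library series treated with 10 mM citraconate (ZR_dmCitra), in 17.6% and 20.3% in the fusion cells titled DMSO (ZR_DMSO), and in 3.28% and 7.21% in those treated with 10 µM of the EZH2 inhibitor GSK343 (ZR_GSK343). In the second library series they had one in 13.5% and 12.6% of cases in Citraconate_50K, which carries a fusion label. The DMSO_50K libraries carry an empty-vector label and had a peak in 23.7% and 25.4% of gained regions and in 1.47% and 1.69% of lost regions. In their full-length lists, which are longer, these shares were 80.2% and 85.6% of gained and 22.1% and 26.9% of lost regions. Lost regions had a peak in 21.0% and 20.0% of cases in EV at that length, and in at most 1.53% of cases in the 8 other fusion-labelled libraries. At equal length the libraries labelled DMSO_50K thus stood with the fusion-labelled ones, against their own label. The share of gained regions was 25.9 ± 1.29% in ZR_dmCitra and 24.5 ± 1.14% in DMSO_50K (SD, n = 2 each). The libraries overlapped, with a difference of 1.39 percentage points (two-sided exact permutation p = 0.667, n = 2 each).

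**Figure D5:**
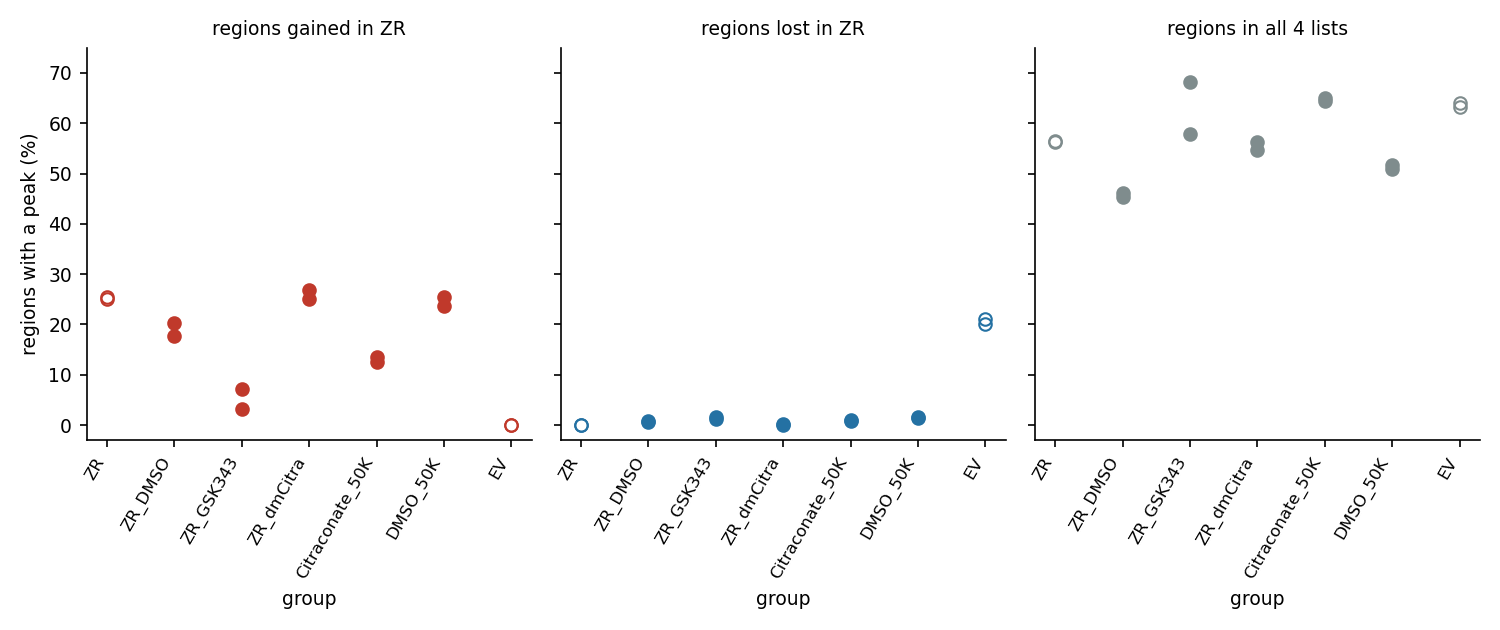
Percent of regions gained in ZR (left), lost in ZR (middle) and in all 4 lists (right) that have a peak in each of the 14 libraries at 11806 peaks a list; each point is a library, open points are the ZR and EV libraries that chose the regions. DMSO_50K, labelled empty vector, has 23.7% and 25.4% of gained regions, while lost regions reach 21.0% and 20.0% only in EV.

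Single genes were looked up in the full-length lists of the other libraries. These lists differ in length, from 11806 peaks in ZR_DMSO replicate 1 to 58475 in DMSO_50K replicate 2. Presence of a peak is therefore not compared at equal length, and a short list can lack a peak that a long one holds. Sox2, Sox1, Sox21, Nfix and Olig2 had no start peak in any of the 8 other fusion-labelled libraries nor in DMSO_50K. Pou3f2, the strongest lost start, had a start peak in 1 of the 8, a Citraconate_50K library, and in both DMSO_50K libraries. Six2, Nrxn3, Zbp1, Igf2 and Tnf had a start peak in all 8 and in both DMSO_50K libraries. Cxcl10 had a start peak in 5 of 8 and in both DMSO_50K libraries, Acod1 in 4 of 8 and in both, and Six3 in 0 of 8 but in both DMSO_50K libraries. Hes5, Id3 and Gli1 had a start peak in 5 of 8.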

How the data were processed

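ATAC-seq was done on 50000 cells per library with paired reads of 50 nt, per the labels' protocols. The tools named are BWA, SAMtools and Picard, with no version, and the build is mm10, per the submitters' processing notes. The deposited MACS2 peak lists hold, per peak, the authors' fold enrichment (a ratio over background), a score, and −log10 p-values and q-values. Per the peak names in the deposited lists, MACS2 was run on each library separately. The sources used here do not give the MACS2 settings or any shift of reads for the Tn5 cut. These values were used only to rank and describe peaks within a list, and they carry no depth or counting error.

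Lists were reduced to 34015 peaks on chromosomes 1 to 19 by −log10 q, overlapping peaks merged, and a peak counted in a region at an overlap of 1 bp. Gene starts came from RefSeq tables of GRCm38.p6, the coordinates of mm10. Of 20661 protein-coding genes 16456 had a listed start, and for the other 4205 either gene end stood in. Promoters were counted once per gene where the 300-base window itself overlapped a peak, and both strands were searched for 16 motifs; an NFI motif, named only, gave 0.855% of gained, 1.35% of lost and 0.802% of all promoters. The planned windows around peak summits needed a genome sequence that was not used here.

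The 29 lists hold 619 genes, of which 616 were matched. The members and lists were chosen with earlier results of these data known. Named genes were, per list, the best 3 gained and best 3 lost by their weaker rank, the genes with most regions, the best regions, the 8 most extreme shared start regions in each direction, and a fixed set. Other list members, marker genes and other rank calls were named after their values were seen. Zfta and L1cam, in the fixed set, and a few genes that the rule names are not reported here. Ranks in regions present in all 4 lists were tested with limma 3.58.1 (R 4.3.3) on normal scores, without a replicate term, at an adjusted p of 0.05. Other steps used Python 3.11.15, pandas 2.3.3, numpy 2.4.6 and SciPy 1.17.1. The region calling and the limma step were tested on simulated data. Alternatives were ranking by fold, full-length lists, −log10 q of 5 or more, 50% cover, windows of 500 bp and 2 kb, chromosomes X and Y added, leaving out chromosome 4 or each library, and a replicate term. Without chromosomes 4, 9, 11 and 15, both gene ends, listed starts only, ranks among shared regions, GC bands and the microRNA look-up were chosen after seeing the data.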

Additional observations from a re-analysis of the deposited data

How the results depend on the processing

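Counts of gained regions and of genes that gained or lost a start peak stayed within 1.5 times their value in all alternatives run. The excess of lost over gained start peaks was smaller with full-length lists, where gains rose and losses fell. The size of that excess thus depended on the cut to equal length, although its direction did not. Ranking by the authors' fold gave the same counts because fold and q order the peaks of each list alike. Leaving out 1 library gave 12229 to 20542 for regions lost in ZR, 415 to 1417 shared regions ranked higher and 326 to 1507 ranked lower. With 50% cover 742 shared regions ranked higher. The share of gained promoters with AP-1 letters was 14.4% to 21.6% when 1 library was left out. The difference in gained regions with a peak in other libraries, ZR_dmCitra minus DMSO_50K, turned to -0.091 percentage points without EV replicate 1, and lay between -0.091 and 1.22 when 1 library was left out. The cause was not tested, except that leaving out EV replicate 1 lengthens the other lists.

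Of the list genes that the naming rule picked at starts, 20 gave no call with full-length lists: Acod1, Ddx58, Dlx2, Ephb2, Fgfr3, Gja1, Gli1, Hes5, Hhip, Id3, Irf7, Keap1, Metrn, Mlc1, Ntrk2, Rfx4, Sox8, Tbx2, Tead2 and Vcam1. Without EV replicate 1 the same genes except Ephb2 and Hhip gave no call. Hopx and Nr2e1, neural stem factors that the rule did not pick, are not among the 20. Neither was lost with full-length lists, since both ZR lists held a peak at Hopx and that of ZR replicate 1 at Nr2e1. Windows of 2 kb ended 7 calls, among them Ccl2 and Bmp2, and windows of 500 bp ended 6. Using both gene ends ended 7, among them Igf2, Nrxn3 and Six3. A −log10 q of at least 5 ended 4, 50% cover ended 3, and leaving out chromosomes 4, 9, 11 and 15 ended 3: Hoxa7, Ikbke and Snai1.

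Replicate numbers are shared by the groups, but the ranks of ZR replicate 1 and EV replicate 1 did not deviate together (r = 0.0258). That value cannot show whether the libraries were paired in culture or preparation, which no label states. With a replicate block 1295 shared regions ranked higher and 2342 lower, and of the genes named by rank Mki67 (limma, adjusted p = 0.0581), Jun (0.0661), Rel (0.0526), Spry4 (0.0582), Cdk6 (0.0765) and Cdkn1c (0.0674) gave no call. Summit windows of other widths were not run. Depth is unknown, so a site with no peak in a full-length list may still be open.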
